A study of Mus musculus with 6 samples.

Results

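The transcription factors CREB (Creb1), CREM (Crem) and ATF1 (Atf1), their calcium- and cAMP-regulated coactivators (Crtc1, Crtc2 and Crtc3) and the acetyltransferases CBP (Crebbp) and p300 (Ep300) were examined in hippocampal RNA of mice that carry an active mutant of the repressor DREAM. All probe sets annotated to exactly 1 of these 8 genes were taken, which gave 22 probe sets of 7 genes among the 45037 probe sets tested and the 18193 genes they name. Creb1 had 6 probe sets, Crem and Crebbp 4 each, Crtc1 3, Crtc2 and Crtc3 2 each and Ep300 1. The only probe set that lists Atf1 also lists the pseudogene Atf1-ps, so Atf1 has no value here. The rule itself uses no measured value, but these genes were picked with earlier results of the same arrays known.

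The arrays compare 3 hippocampi of line L26, adult male mice homozygous for the daDREAM transgene, with 3 hippocampi of their wild type littermates. Both groups share the mixed C57B6xCBA background, and no stimulus is named for either. The 3 arrays of a group are independent biological replicates per the series' design text. L26 is 1 transgenic line, and the promoter that drives its transgene is not given in the sources used here.

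CREB-type factors bind the cAMP response element (CRE) of target genes as dimers. Phosphorylation by cAMP- and calcium-dependent kinases lets them recruit CBP or p300, which acetylate histones, while CRTC proteins enter the nucleus when they lose phosphate and bind the DNA-binding region of CREB. Crem also yields ICER, a short repressor made from an internal promoter that is itself induced through CREs. In the hippocampus this pathway is known for activity-dependent transcription and long-term memory. DREAM, the product of Kcnip3, represses genes through a downstream regulatory element (DRE) and leaves it when calcium binds. It is also known to bind CREB and CREM proteins and to interfere with the recruitment of CBP, which are contacts between proteins that an mRNA array does not measure.

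In L26 hippocampus no measured transcript of this machinery passed the threshold. Separately, 13 of 30 genes listed as induced through CREs had fallen, a list written with earlier results known. Of the 22 probe sets, 0 were past an adjusted p of 0.05 (limma, Benjamini-Hochberg over all 45037 probe sets), against 3.92% of all probe sets. At so low a share a set of 22 can easily hold none, so this 0 does not set the members apart. The median difference was 0.005 on the log2 scale for the 22 probe sets and 0.013 for all probe sets, and the median size of a difference, whatever its sign, was 0.060 and 0.073. The 95% intervals of 21 of the 22 differences lay inside -0.5 to 0.5, and those of 17 inside -0.3 to 0.3. A higher mean in L26 was found for 12 probe sets and a lower mean for 10. All values below are log2 expression values of 1 probe set, and SE is the standard error of the limma fit. Levels of different probe sets are not compared, since probes differ in how well they bind. In bulk tissue, fewer cells of a type and less RNA per cell cannot be told apart.

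At an unadjusted p of 0.05, 2 of the 22 were past (9.09%), 1 of Creb1 and 1 of Crem, where 18.1% of all probe sets were. In the same 2 probe sets the L26 values did not overlap the wild type values, which was so for 21.9% of all probe sets. The other 20 overlapped between the groups.

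**Figure D1:**
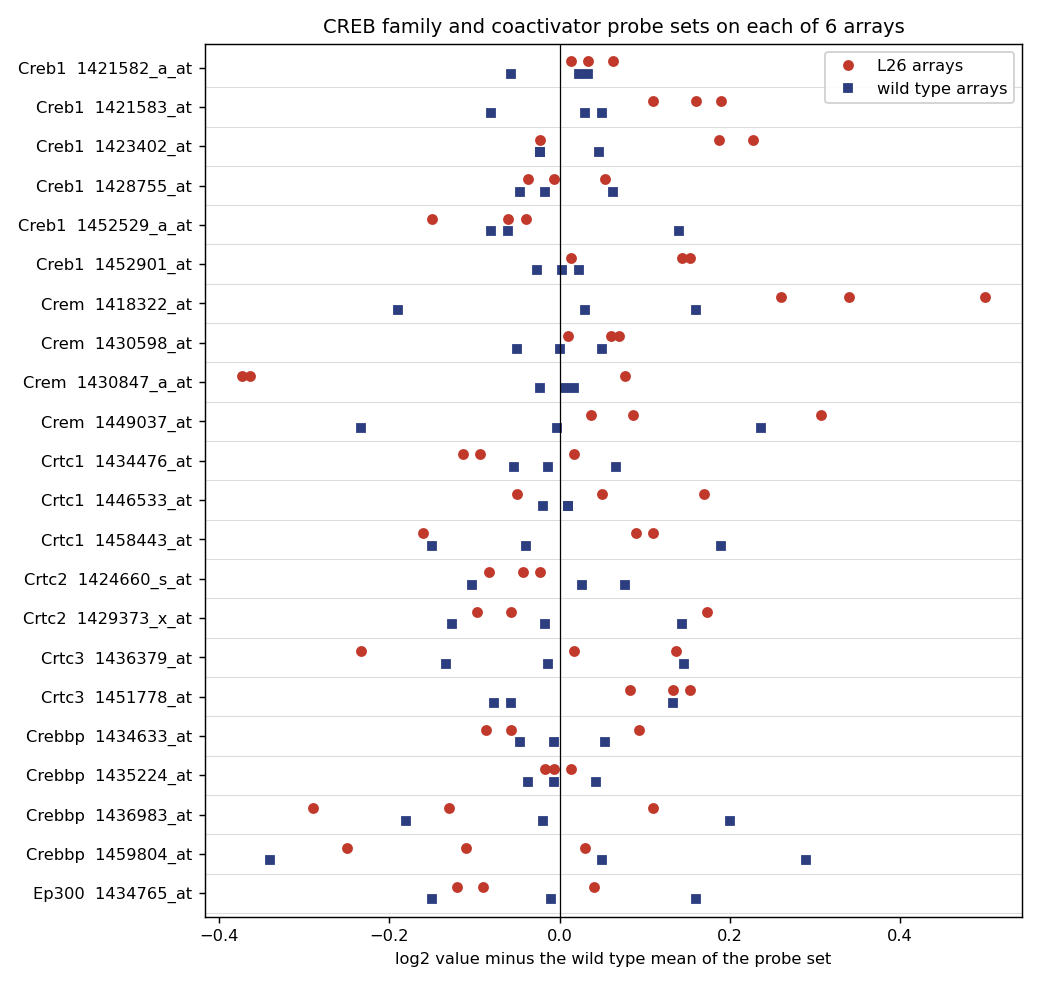
Values of the 22 probe sets on each array, as log2 value minus the wild type mean of that probe set (x axis), with 3 L26 arrays (circles) and 3 wild type arrays (squares) per row. The 2 groups are apart only for Crem 1418322_at and Creb1 1421583_at, and overlap in the other 20 rows.

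Creb1 encodes CREB itself, the activator that gives the family its name. Its probe set with the highest signal, 1452901_at, had 10.60, 10.61 and 10.47 in the L26 arrays, against 10.43, 10.48 and 10.46 in the wild type arrays. One L26 array lay between wild type values, and the difference of 0.10 (SE 0.06, adjusted p = 0.41, limma) had a 95% interval of -0.03 to 0.24. A second well detected probe set, 1428755_at, had 9.46, 9.55 and 9.49 in L26 and 9.45, 9.48 and 9.56 in wild type, a difference of 0.003 (interval -0.13 to 0.13).

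Of the remaining Creb1 probe sets, 1423402_at had 7.29, 7.54 and 7.50 in L26 and 7.36, 7.29 and 7.29 in wild type, so that 2 L26 arrays were above every wild type array and 1 was not (difference 0.13, interval -0.04 to 0.30). Probe sets 1421582_a_at and 1452529_a_at, of the kind designed to detect several transcripts of 1 gene, differed by 0.04 and -0.08. The groups were apart for 1421583_at, with 4.49, 4.57 and 4.54 in L26 against 4.43, 4.30 and 4.41 in wild type. That difference of 0.15 (SE 0.06) did not pass (adjusted p = 0.212, limma), and all of its values lay below 5.95, the lower quartile of the values on the arrays. Over the 6 probe sets no interval reached above 0.30 or below -0.25, so a difference of 0.5 lies outside all of them. The adjusted p-values ran from 0.212 to 0.985.

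Crem showed the widest spread of differences, from -0.22 to 0.37 over its 4 probe sets. The largest was at 1418322_at, which had 7.65, 7.81 and 7.57 in L26, against 7.12, 7.34 and 7.47 in wild type. Every L26 array was above every wild type array. The means were 7.68 ± 0.12 and 7.31 ± 0.18 (SD, n = 3 each), a 1.29-fold level in L26 (interval 1.11 to 1.50), or 0.37 on the log2 scale (SE 0.10). It did not pass at 0.05 (adjusted p = 0.0743, limma) and would pass at 0.1, as 7.03% of all probe sets do. Of the alternatives that kept the threshold at 0.05 none took it past, with adjusted p-values from 0.0555 to 0.216.

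The opposite sign was found at 1430847_a_at, which had 7.24, 6.79 and 6.80 in L26, against 7.18, 7.14 and 7.17 in wild type. L26 replicate 1 was the highest of all 6 arrays and the other 2 L26 arrays were the lowest. The difference of -0.22 (SE 0.11, adjusted p = 0.339, limma) had an interval of -0.47 to 0.03. Without L26 replicate 1 it was -0.37 and passed (adjusted p = 0.018, limma), so this array decides the call. The third, 1449037_at, had 7.95, 8.17 and 7.90 in L26 and 7.63, 7.86 and 8.10 in wild type, and its spread within the wild type group (SD 0.24) exceeded the difference of 0.14. The last, 1430598_at, lay between 4.62 and 4.68 in L26 and between 4.56 and 4.66 in wild type, below the lower quartile of the arrays.

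Whether Crem probe sets differed from each other was tested within arrays. For each of 25762 probe sets of the 9010 genes with at least 2, the mean of the gene's other probe sets was subtracted on every array and the remainder compared between groups. In this test 1418322_at stood 1.14 ± 0.11 above the other Crem probe sets in L26 and 0.76 ± 0.11 above them in wild type (SD, n = 3 each), a difference of 0.38 (SE 0.09, adjusted p = 0.0527, limma). None of the 21 member probe sets tested this way passed, against 2.48% of all, but this one is at the edge. It passed after a repeated quantile normalization (adjusted p = 0.048), without the dimmest 40% of probe sets (0.0313), with an intensity trend and robust prior (0.0463) and without probe sets open to related transcripts (0.0451), all with limma. The last of these settings removed no Crem probe set, so the difference itself stayed at 0.38. The remainder of 1418322_at did not pass with any 1 array left out (0.0618 to 0.187), under the replicate block (0.0562) or after median centring (0.0527), all with limma. For 1430847_a_at the same measure had -0.41 (adjusted p = 0.193, limma) and passed only without L26 replicate 1 (-0.57, adjusted p = 0.0298).

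Set directly against each other, a pair chosen after their values were seen, 1418322_at exceeded 1430847_a_at by 0.41, 1.02 and 0.77 in L26 and by -0.06, 0.20 and 0.30 in wild type. Which transcripts of Crem, activator, repressor or ICER, each probe set detects is not given in the sources used here. Across the 6 arrays, which share their normalization, 1418322_at had a Pearson r of 0.844 with 1449037_at and of -0.557 with 1430847_a_at. Both values of r pool L26 and wild type arrays, so they include the group differences given above and add no separate observation.

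**Figure D2:**
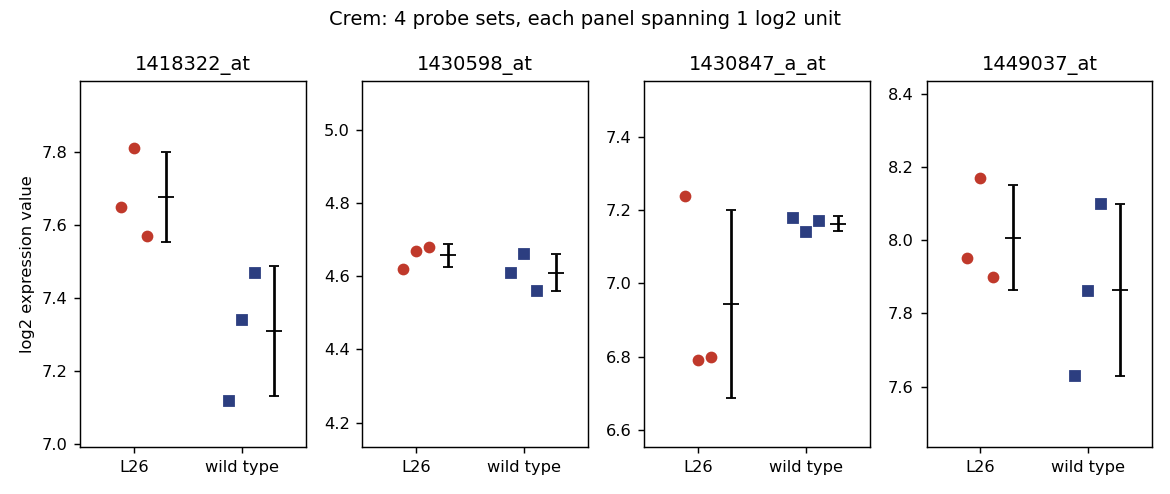
Log2 expression values of the 4 Crem probe sets in 3 L26 arrays (circles, left) and 3 wild type arrays (squares, right), with mean and SD as bars and 1 log2 unit per panel. The groups are apart at 1418322_at (7.57 to 7.81 in L26, 7.12 to 7.47 in wild type), while 1430847_a_at has 1 L26 array above and 2 below wild type.

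The CRTC coactivators carry the calcineurin- and SIK-controlled arm of the pathway. Crtc1, the CRTC best known from neurons, had 10.04, 10.02 and 10.15 in L26 and 10.12, 10.08 and 10.20 in wild type at 1434476_at. The groups overlapped, and the difference was -0.06 (SE 0.06, interval -0.20 to 0.08). Its other probe sets, 1446533_at and 1458443_at, differed by 0.06 and 0.01.

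Crtc2, known for the fasting response of liver, was measured by 1429373_x_at and 1424660_s_at, both open to related transcripts. The first had 7.88, 7.61 and 7.65 in L26 and 7.85, 7.58 and 7.69 in wild type, with replicate 1 the highest in both groups. The differences were 0.007 and -0.05, with intervals between -0.20 and 0.21.

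Crtc3 had 8.43, 8.18 and 8.55 in L26 and 8.28, 8.40 and 8.56 in wild type at 1436379_at (difference -0.03, interval -0.26 to 0.21). Its second probe set, 1451778_at, had 7.90, 7.97 and 7.95 in L26 and 7.74, 7.95 and 7.76 in wild type. Wild type replicate 2 lay among the L26 values, and the difference of 0.12 (SE 0.07) did not pass (adjusted p = 0.392, limma). Across the 7 Crtc probe sets the adjusted p-values ran from 0.392 to 0.984.

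CBP and p300 are the large acetyltransferases that phosphorylated CREB recruits. Crebbp was the most even of the members at 1435224_at, with 10.08, 10.05 and 10.06 in L26 and 10.06, 10.03 and 10.11 in wild type. The difference was -0.003 (SE 0.05), with an interval of -0.12 to 0.12. At 1434633_at it was -0.02 (interval -0.16 to 0.13). Ep300, with its 1 probe set, had 10.15, 9.99 and 10.02 in L26 and 10.10, 9.96 and 10.27 in wild type, a difference of -0.06 (SE 0.08, interval -0.25 to 0.13, adjusted p = 0.79, limma).

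The other Crebbp probe sets varied far more between animals than between groups. At 1436983_at the values were 9.77, 10.01 and 9.61 in L26 and 9.88, 10.10 and 9.72 in wild type, and at 1459804_at they were 5.82, 5.96 and 5.68 in L26 and 5.98, 6.22 and 5.59 in wild type. Both were highest in replicate 2 of each group and lowest in replicate 3, and they followed each other over the 6 arrays (r = 0.911). The first pair of Crebbp probe sets ran against them (r from -0.851 to -0.636). The intervals of 1436983_at and 1459804_at were the wider ones of the gene, -0.37 to 0.16 and -0.43 to 0.21. The mean of 1459804_at over the 6 arrays, though not each value, lay below the lower quartile.

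**Figure D3:**
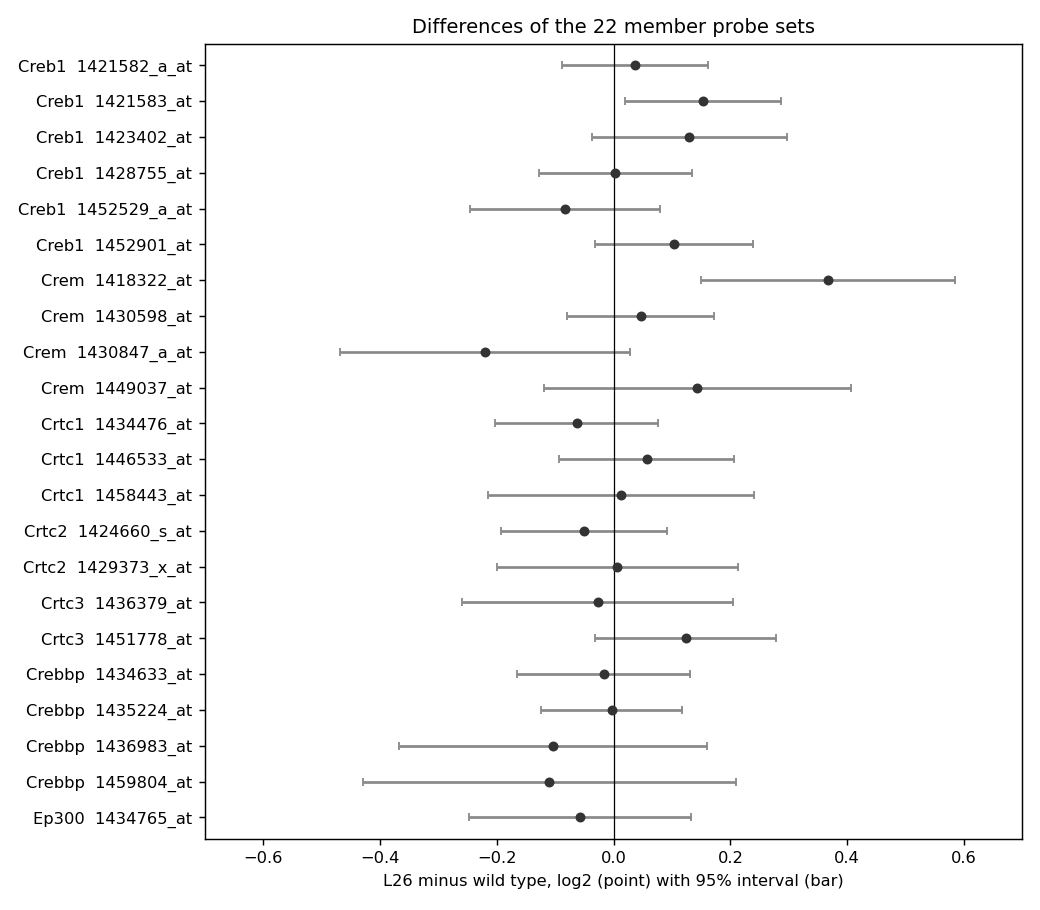
Difference L26 minus wild type on the log2 scale (points) with its 95% interval (bars) for the 22 probe sets. Point estimates run from -0.22 to 0.37, and 2 intervals, those of Crem 1418322_at and Creb1 1421583_at, leave out 0.

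With 1 probe set per gene, the one with the highest mean, 0 of the 7 genes passed, against 5.19% of all genes. At an unadjusted p of 0.05 the count was 0 of 7 as well, against 20.3% of all genes. Adjusted p-values ran from 0.352 for Creb1 to 0.982. This choice sets Crem at 1449037_at, not at the probe set with the largest difference.

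The 2 members with the largest spread over the 6 arrays at that probe set were Crem (SD 0.19) and Crtc3 (SD 0.15), and the likeness of other genes to them was measured by Pearson's r over the 6 arrays among 9097 genes. The patterns nearest to Crem 1449037_at were those of Gm6556 (r = 0.974), Senp8 (r = 0.969) and Ftmt (r = 0.967). Nearest to Crtc3 1436379_at were Upp1 (r = 0.996), Wdr86 (r = 0.991) and Mgst1 (r = 0.988). All 6 differed between groups by at most 0.19 and none passed (adjusted p from 0.388 to 0.992, limma). These values of r describe 6 arrays that share their normalization. They are the highest among 9097 genes, and with so few arrays values this high can arise by chance.

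Upstream of CREB few genes passed. Of 31 measured genes of cAMP, calcium and kinase inputs, 0 were higher, 2 were lower and 29 did not pass. The background was 2.63% of all genes higher and 2.57% lower. The median difference was -0.05, against 0.01 over all genes. Camk4, the nuclear calmodulin kinase that phosphorylates CREB, was lower by 1.03 (SE 0.06, adjusted p = 7.09e-05, limma), and the differences at the 4 other probe sets of this gene ran from -0.88 to 0.30. Adcy8, a calcium-stimulated adenylyl cyclase, had 7.94, 7.90 and 7.91 in L26 and 8.51, 8.54 and 8.63 in wild type, a fall of 0.64 (SE 0.05). The phosphodiesterase gene Pde4d had -0.19 (adjusted p = 0.0885, limma), the kinase A subunit gene Prkacb -0.16 (adjusted p = 0.0969) and Adcy9 0.12 (adjusted p = 0.199). The other probe set of Pde4d had 0.22, those of Prkacb ran from -0.30 to 0.15, and those of Adcy9 all lay below 0.12.

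Genes induced through CREs were lower far more often than all genes. Of 30 measured, 13 fell (43.3%, where 2.57% of all genes fell), 2 rose and 15 did not pass, with a median difference of -0.285. This list was written with earlier results of these data known, so its direction is not independent evidence. Npas4, Dusp1, Junb, Fos, Arc, Gadd45g, Pcsk1, Nr4a1, Egr1, Fosb, Per1, Nr4a2 and Per2 fell. Differences at the other probe sets of Nr4a2 ran from -0.55 to 0.12, and at those of Per2 from -0.34 to -0.12. The largest falls were those of the activity-induced factor genes Fos, with 9.14, 8.57 and 8.35 in L26 and 10.24, 11.05 and 10.98 in wild type, and Npas4, with 6.86, 7.14 and 7.14 in L26 and 8.67, 8.77 and 8.87 in wild type. The smallest were Pcsk1, a prohormone convertase gene (-0.39, SE 0.06), Gadd45g, a stress- and activity-induced gene (-0.39, SE 0.06), and Fosb, an AP-1 subunit gene (-0.31, SE 0.06).

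Inhba, an activin subunit gene, rose by 0.36 and Tac1, the substance P precursor gene, by 0.25, although their other probe sets had 0.02 and 0.04. Gadd45b (-0.44, adjusted p = 0.0572), Egr2 (-1.18, adjusted p = 0.0761) and Sst (0.20, adjusted p = 0.0933) did not pass (limma). The number that fell was 9 with the replicate number as a block, 8 without wild type replicate 3, 8 without L26 replicate 2 and 7 without L26 replicate 3. On the same arrays the mean of 11 oligodendrocyte markers was 11.75 to 12.01 in L26 and 11.46 to 11.55 in wild type, that of 10 vascular markers 9.04 to 9.13 in L26 and 8.66 to 8.67 in wild type, and that of 8 cortical and subicular markers 9.47 to 9.54 in L26 and 9.81 to 9.86 in wild type. Of these markers 9, 6 and 0 rose and 0, 0 and 5 fell. Among other cell types, 3 of 9 microglia markers rose and 1 fell, 2 of 8 choroid plexus and ependyma markers rose and 1 fell (Kcne2, -1.73), and 1 inhibitory neuron marker (Pvalb, -0.30) and 1 astrocyte marker (S100b, -0.28) fell. The part of these markers in the falls was not tested. The mean of the neuron markers was 12.57 to 12.60 in L26 and 12.58 to 12.68 in wild type, and 0 of 10 passed. Of 10 markers of hippocampal subfields 3 rose and 0 fell.

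Relatives of the members were counted next. Of 19 other ATF and CREB-like factors 0 passed, with a median difference of 0.08. An unadjusted p under 0.05 (limma) was found for 6 of the 19, against 20.3% of all genes. Creb3l2, a membrane-bound relative of the secretory pathway, had 0.31 (adjusted p = 0.0541), Atf5 0.21 (adjusted p = 0.0546) and Crebzf -0.19 (adjusted p = 0.073), all with limma. The other probe set of Creb3l2 had 0.22, and those of Crebzf ran from -0.20 to 0.07. Of 19 other acetyltransferases, deacetylases and CBP partners, Cited2 fell and 18 did not pass. Cited2, whose protein competes for a domain of CBP and p300, had 9.96, 9.91 and 9.94 in L26 and 10.15, 10.14 and 10.24 in wild type (-0.24, SE 0.05, adjusted p = 0.0349, limma). Its other probe set had -0.24 as well, but the call was lost with each of the 6 arrays left out in turn (adjusted p from 0.0663 to 0.122, limma) and under the replicate block (adjusted p = 0.0751). Hdac3 (-0.21, adjusted p = 0.0703), Cited4 (-0.21, adjusted p = 0.121) and Ncoa3 (-0.31, adjusted p = 0.162) did not pass (limma). The other probe set of Cited4 had -0.06 and that of Ncoa3 had 0.22.

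**Figure D4:**
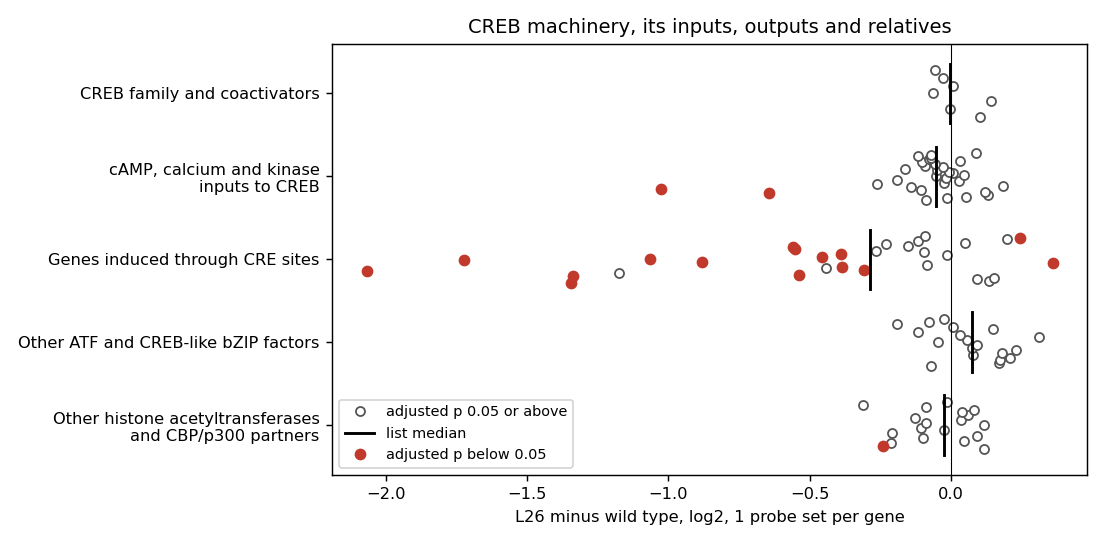
Difference L26 minus wild type on the log2 scale for each measured gene of 5 lists, with 1 probe set per gene, filled where the adjusted p is below 0.05, and the list's median as a vertical bar. The 7 member genes lie between -0.06 and 0.14, while 13 of 30 CRE-induced genes are filled on the left.

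The promoters of the members and of the CRE-induced genes that fell are shown because CREB acts through the CRE and DREAM through the DRE. RefSeq promoter windows of build GRCm38.p6 run from 250 bases before to 50 after an annotated start. For named genes the windows of a single chromosome were left out, though they count in the background shares below. With this filter 6 of the 8 member genes had a window (Creb1, Atf1, Crtc1, Crtc3, Crebbp and Ep300). A gene without a window here may therefore still have an annotated promoter. Both strands were searched for the full CRE (TGACGTCA), for its half-site (TGACG, or CGTCA on the other strand), and for the DRE core (GTCA, or TGAC), which lies inside every half-site. The full CRE was present in 1.79%, the half-site in 20.8% and the DRE core in 85.2% of 32851 promoter windows. Capitals mark every match, so that a run of 4 is a DRE core alone, a run of 5 a half-site and a run of 8 the full CRE. Each sequence is printed 5′ to 3′ on the strand of its gene, first 3 members and then 3 genes that fell.
Creb1, chr1:64532554-64532853, plus strand: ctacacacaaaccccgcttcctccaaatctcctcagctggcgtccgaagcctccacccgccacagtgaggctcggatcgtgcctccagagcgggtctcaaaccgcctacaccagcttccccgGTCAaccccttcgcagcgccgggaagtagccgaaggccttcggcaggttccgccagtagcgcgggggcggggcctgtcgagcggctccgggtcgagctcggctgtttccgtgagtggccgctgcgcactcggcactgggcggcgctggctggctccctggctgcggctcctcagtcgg
Crebbp, chr16:4213355-4213654, minus strand: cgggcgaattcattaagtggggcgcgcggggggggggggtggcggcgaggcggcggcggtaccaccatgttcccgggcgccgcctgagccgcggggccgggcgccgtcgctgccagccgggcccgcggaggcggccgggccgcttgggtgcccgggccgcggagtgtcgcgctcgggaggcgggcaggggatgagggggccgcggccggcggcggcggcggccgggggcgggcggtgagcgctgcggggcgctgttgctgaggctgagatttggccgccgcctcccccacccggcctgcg
Ep300, chr15:81585964-81586263, plus strand: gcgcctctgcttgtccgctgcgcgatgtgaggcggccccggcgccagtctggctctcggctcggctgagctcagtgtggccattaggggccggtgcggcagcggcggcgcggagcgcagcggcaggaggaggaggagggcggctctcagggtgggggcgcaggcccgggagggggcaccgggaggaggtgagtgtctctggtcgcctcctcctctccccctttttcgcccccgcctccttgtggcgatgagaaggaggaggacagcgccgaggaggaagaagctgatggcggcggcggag
Fos, chr12:85473640-85473939, plus strand: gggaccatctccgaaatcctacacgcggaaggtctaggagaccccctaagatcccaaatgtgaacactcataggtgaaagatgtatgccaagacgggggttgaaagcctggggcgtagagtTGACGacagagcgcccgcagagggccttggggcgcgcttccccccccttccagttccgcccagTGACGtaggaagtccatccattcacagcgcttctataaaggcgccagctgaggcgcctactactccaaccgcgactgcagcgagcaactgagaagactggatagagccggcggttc
Nr4a1, chr15:101266596-101266895, plus strand: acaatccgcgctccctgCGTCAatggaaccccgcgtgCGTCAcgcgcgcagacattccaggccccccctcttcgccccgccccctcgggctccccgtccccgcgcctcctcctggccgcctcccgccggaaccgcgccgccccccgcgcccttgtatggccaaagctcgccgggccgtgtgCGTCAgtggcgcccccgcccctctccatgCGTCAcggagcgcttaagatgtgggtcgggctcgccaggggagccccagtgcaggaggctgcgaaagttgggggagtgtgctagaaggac
Dusp1, chr17:26508423-26508722, minus strand: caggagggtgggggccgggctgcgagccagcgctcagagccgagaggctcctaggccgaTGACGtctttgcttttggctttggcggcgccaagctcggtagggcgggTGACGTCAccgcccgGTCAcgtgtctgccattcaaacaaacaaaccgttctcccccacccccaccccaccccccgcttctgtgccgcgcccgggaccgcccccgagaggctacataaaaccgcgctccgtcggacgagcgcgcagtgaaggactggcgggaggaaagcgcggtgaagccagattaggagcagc

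None of the 6 member windows held the full CRE, and only that of Atf1 held a half-site. A DRE core was found in those of Creb1 (1 match) and Atf1 (4), and in none of those of Crtc1, Crtc3, Crebbp and Ep300. Of the 13 genes that fell, 10 had a window here, and 9 of these 10 held a half-site, 2 the full CRE and 10 a DRE core. Of the 12 CRE-induced genes with a window that did not fall, 9 held a half-site, 3 the full CRE and 12 a DRE core. These 12 genes had 23 windows and the 10 that fell had 11, so the counts per gene are not on equal terms. The list was chosen for CREs, and whether matches differ between the 2 sets of genes was not tested. Nr4a1 had 4 half-sites, Nr4a2 4, and Fos and Npas4 2 each. Dusp1 had 3, a count that takes in both strands of its 1 full CRE. The members' windows had a G and C content of 69.0% to 82.0%, and those of the CRE-induced genes that fell 49.3% to 81.7%. These matches describe letters in 1 short window and say nothing of binding, and a window without a match says nothing of sites elsewhere in the gene.

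**Figure D5:**
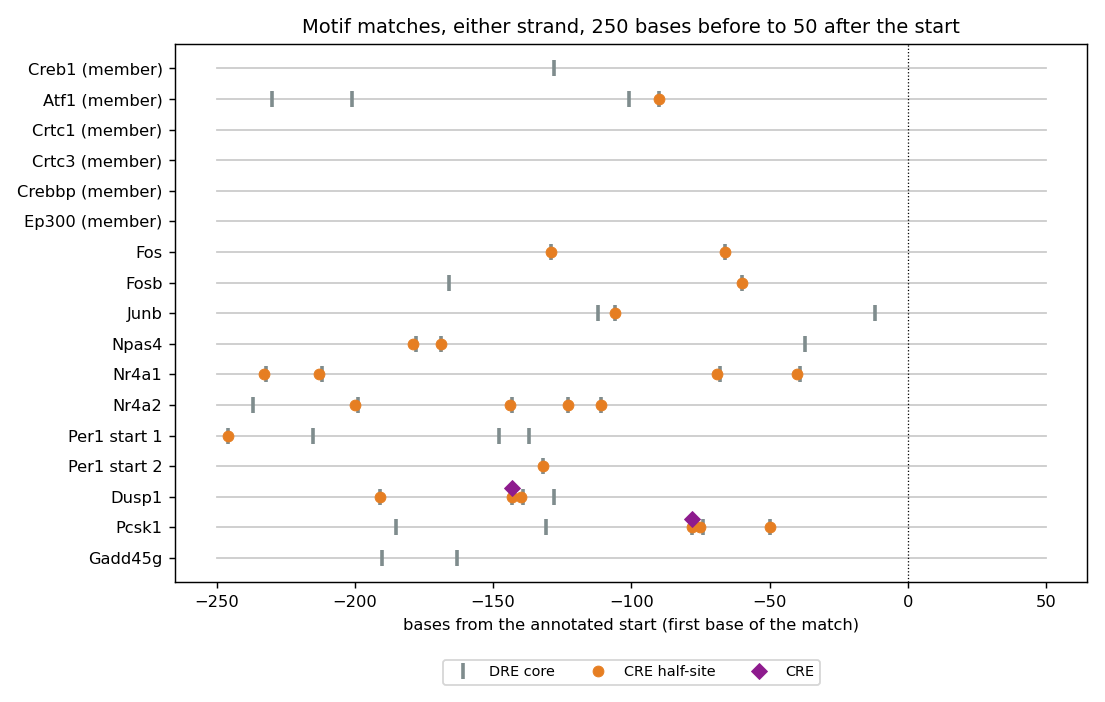
Positions of motif matches on either strand, in bases from the annotated start, for the 6 member windows (top rows) and 11 windows of 10 CRE-induced genes that fell. Bars are DRE cores, circles CRE half-sites and diamonds full CREs. The rows of Crtc1, Crtc3, Crebbp and Ep300 are empty, while 9 of the 10 genes below hold at least 1 circle.

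Kcnip3, the gene of DREAM itself, had 10.15, 10.09 and 10.20 in L26 and 10.38, 10.36 and 10.21 in wild type at 1418544_at (-0.17, adjusted p = 0.208, limma), and 9.17, 9.26 and 9.18 in L26 against 9.51, 9.64 and 9.41 in wild type at 1449129_a_at (-0.32, adjusted p = 0.0393). Whether either probe set covers the transgene is not known here, so they do not check the labels. Array medians ran from 7.30 to 7.32 in L26 and from 7.27 to 7.29 in wild type, and arrays correlated at 0.9971 to 0.9979 within groups and 0.9944 to 0.9958 between them. Over all genes 478 were higher and 467 lower, or 382 and 690 when arrays were centred on their medians.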

How the data were processed

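RNA of 6 hippocampi (3 L26, 3 wild type) was hybridised to Affymetrix mouse arrays, 1 per sample. What the authors deposited is a log2 level for every probe set on every array, from RMA and affy per the submitters' processing notes, which give no versions. RMA in its usual form equalises the distributions of arrays and carries no detection call, so differences of dim transcripts can come out small. The values have 2 decimals and run from 4.20 to 15.02. All per-sample columns were used and 64 control probe sets left out. Of 45037 probe sets, 34945 had 1 gene symbol in the platform annotation, 932 several and 9160 none, and only those with 1 were named.

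Each difference, L26 minus wild type, was fitted by lmFit and moderated by eBayes (limma 3.58.1, R 4.3.3; two-sided, Benjamini-Hochberg adjustment over all probe sets, all genes or all within-gene remainders, threshold 0.05), in code tested on simulated data. A gene was represented by its probe set with the highest mean. The number of arrays limits the precision. An exact permutation test of 3 against 3 cannot go below p = 0.1, so none was used. Same-numbered arrays of the 2 groups deviated from their group means with correlations of -0.038, -0.070 and 0.154. Differently numbered arrays had -0.153 to 0.188, so no pairing by number was seen over all probe sets. These few values cannot exclude a pairing, and the replicate block was run as an alternative.

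The rule names every member probe set, list genes past the threshold, up to 3 others per list with the smallest p, the genes nearest in pattern to 2 members, Kcnip3 and up to 4 markers per cell type list with the smallest p. Members and lists were chosen with earlier results of these data known. Alternatives were a replicate block, each array left out, a repeated quantile normalization, median centring, a prior with intensity trend and robust fit, leaving out the dimmest 40%, leaving out _x_at and _s_at identifiers, a threshold of 0.1 and the mean of a gene's probe sets.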

Additional observations from a re-analysis of the deposited data

How the results depend on the processing

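The count of 0 member probe sets past the threshold became 1 higher at a threshold of 0.1 (Crem 1418322_at) and 1 lower without L26 replicate 1 (Crem 1430847_a_at), so with single arrays left out it ran from 0 to 0 higher and from 0 to 1 lower. Of 281 recomputed member probe set differences 279 kept their side of the threshold, as did all 97 of single member genes. The count of 0 higher within-gene remainders became 1, each time Crem 1418322_at, after a repeated quantile normalization, without the dimmest 40% of probe sets, with an intensity trend and robust prior, without _x_at and _s_at probe sets and at a threshold of 0.1. The count of 0 lower ones ran from 0 to 1 with arrays left out, with 1 without L26 replicate 1. With the replicate number as a block, 0 member probe sets, 0 member genes and 0 remainders passed, and the fit called 9 CRE-induced genes lower in place of 13. With arrays left out that count ran from 7 to 15, and 7 of the 13 genes stayed lower under every alternative. The count of CRE-induced genes that rose, 2, was 1 under the block, 0 to 1 with arrays left out, 0 with the mean of a gene's probe sets and 3 with the trend prior or at 0.1. Lower inputs, 2, became 4 with the trend prior or at 0.1. Lower acetyltransferases and partners, 1, became 0 under the block, 0 to 1 with arrays left out and 2 after centring, with the trend prior or at 0.1. Other ATF and CREB-like factors, 0 in both directions, had 0 to 1 higher with arrays left out, 2 higher without the dimmest 40%, with the mean of probe sets or at 0.1, 1 higher with the trend prior, and 1 lower after centring, with the trend prior or at 0.1. The cause of these changes was not tested. Median centring gave a median difference over all probe sets of -0.017, against 0.013 as deposited. With 3 arrays per group, differences of about 0.1 to 0.3 in the noisier member probe sets are within their intervals and were not detectable, and dim probe sets carry no detection call.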
